A study of Mus musculus with 6 samples.

Results

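Of the 55298 gene identifiers in the table, 9 genes of the endothelial barrier and its transport systems, taken by symbol from a list of these functions, are described here in brain cells of mice with experimental autoimmune encephalomyelitis (EAE), the mouse model of multiple sclerosis. The tight junction genes are Cldn5, Ocln and Tjp1, the adherens junction and cell contact genes are Cdh5 and Pecam1, and the transport genes are Mfsd2a, Slco1a4, Abcb1a and Slc2a1. All 9 passed the filter on low values (a mean of at least 3). Brain endothelial cells restrict what passes from blood to tissue in several ways. Tight junctions seal the cleft between neighbouring cells, adherens junctions hold the cells together, transporters in the plasma membrane carry nutrients in and drugs and metabolites out, and little cargo crosses in vesicles. Wnt signals from the surrounding tissue maintain this state in the brain vessels, and leakage of the barrier is a known feature of EAE.

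The EAE group consisted of 3 pools of brain cells from 6 c56Bl/6j mice given the MOG 35-55 peptide of a myelin protein by immunisation, with 2 mice in each pool. The OVA group consisted of 3 samples from 4 c56Bl/6j mice given ovalbumin, of which replicates 1 and 3 held 1 mouse each and replicate 2 held 2. Mice were killed at peak disease, and age and sex are not used here. Cells were taken from the brain without culture, with magnetic beads against the oligodendrocyte antigen O4, and are labelled oligodendrocytes, so the endothelial transcripts come from a preparation not aimed at vessels. No label says how many endothelial cells a sample held. In bulk RNA of this kind, fewer endothelial cells and less RNA of a gene per cell cannot be told apart.

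Each value is a regularised logarithm (rlog) of a scaled read count on the log2 scale, with low genes pulled towards their own mean, so that fold changes of low genes are understated. The labelled cell type was checked by 8 oligodendrocyte markers, none at 0, with a summed level of 20.20 to 20.34 in EAE and 19.82 to 20.25 in OVA. The 16 other endothelial markers, which leave out all 9 genes described here, had a summed level of 15.72 to 16.29 in EAE and 16.15 to 16.93 in OVA. OVA replicate 3 held the highest value of the 6 samples for 16 of 16 of these markers. It was also highest for 10 of 12 pericyte and smooth muscle markers and 8 of 8 choroid plexus markers. OVA replicate 3 was highest as well for 6 of 6 erythroid markers and 5 of 5 tested platelet markers. It also held the lowest value for 8 of 8 oligodendrocyte markers, the labelled cell type. Over all 18161 tested genes OVA replicate 3 was the highest sample for 25.5% and the lowest for 25.2%. OVA replicate 1 was as often at the ends, highest for 26.8% and lowest for 24.2%. OVA replicate 1 held the lowest value for 8 of 8 choroid plexus markers and the highest for 7 of 8 astrocyte markers.

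None of the 9 genes passed the test between EAE and OVA, while all 9 lay lower in EAE on average. The mean of 16 other endothelial markers differed by -0.53, further below 0 than 6 of the 9 (Cldn5, Ocln, Tjp1, Pecam1, Mfsd2a and Slc2a1), which therefore have a positive sign relative to it. The differences ranged from -0.66 for Slco1a4 to -0.22 for Slc2a1, with a median of -0.41, where the median of all tested genes was -0.00 and 50.7% lay below 0. With limma, 0 of 9 were called lower, against a background of 0.666% of tested genes, and 0 of 9 were called higher, against 1.72%. At an unadjusted limma p under 0.05, 5 of 9 were lower (Tjp1, Cdh5, Mfsd2a, Slco1a4 and Abcb1a), against a background of 7.15%, and 0 were higher, against 9.17%. The groups did not overlap for 3 of 9 (Tjp1, Mfsd2a and Slco1a4), against 10.8% of tested genes that lay lower in EAE without overlap. OVA replicate 3 was the highest of the 6 samples for 9 of 9. When samples were weighted by limma's array quality weights, 5 of 9 were called lower (Tjp1, Cdh5, Pecam1, Mfsd2a and Abcb1a). The background was 12.3% under the same weights. That weighting stopped before it converged and rested mostly on OVA replicate 2, with a weight of 8.85 against 0.275 and 0.222 for the other OVA samples.

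Sequence upstream of the transcription start was looked up for 3 of the genes, because they differ in behaviour: Slco1a4 had the largest difference, Cldn5 followed the other endothelial markers of its sample, and Mfsd2a did not. Each run gives the 250 bases before the RefSeq start, 5′ to 3′ along the gene's strand, on GRCm38.p6. The windows are chr16:18776597-18776846 on the plus strand for Cldn5, chr6:141856221-141856470 on the minus strand for Slco1a4, and chr4:122961189-122961438 on the minus strand for Mfsd2a. Capitals mark matches, on either strand, to short cores of factors known from vessels or from basal transcription. ETS factors were searched by the longer site CCGGAA, which holds their core GGAA. For TCF/LEF factors, through which Wnt signals act, the letters were CTTTGA. SOX factors, several of which shape vessels, were searched by the core ACAAT. The letters for FOX factors were TAAACA. For the GC box of KLF and SP factors they were GGGCGG. The TATA box, which places the start of transcription, was searched as TATAAA.
Cldn5: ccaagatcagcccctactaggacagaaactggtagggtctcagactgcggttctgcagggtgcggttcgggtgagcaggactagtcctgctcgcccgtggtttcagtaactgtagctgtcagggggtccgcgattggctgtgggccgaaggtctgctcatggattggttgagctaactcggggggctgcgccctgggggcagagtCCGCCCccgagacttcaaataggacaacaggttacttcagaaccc
Slco1a4: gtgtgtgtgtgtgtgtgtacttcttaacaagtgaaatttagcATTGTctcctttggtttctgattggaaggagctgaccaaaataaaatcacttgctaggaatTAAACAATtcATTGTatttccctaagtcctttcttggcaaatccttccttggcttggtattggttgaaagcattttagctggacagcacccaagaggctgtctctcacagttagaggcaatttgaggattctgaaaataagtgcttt
Mfsd2a: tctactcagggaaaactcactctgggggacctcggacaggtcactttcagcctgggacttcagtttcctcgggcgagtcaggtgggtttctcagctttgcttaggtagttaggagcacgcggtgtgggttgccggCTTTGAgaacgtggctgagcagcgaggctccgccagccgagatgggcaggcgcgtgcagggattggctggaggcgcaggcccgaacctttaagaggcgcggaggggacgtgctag

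The Cldn5 window held 1 GC box and no other of these cores, at 59.6% G and C. The Slco1a4 window, at 39.2% G and C with no CpG, held 3 SOX cores and 1 FOX core, of which 1 SOX core overlaps the FOX core. The Mfsd2a window held 1 TCF/LEF core, at 61.6% G and C. Over all 32851 windows of the same length, 32.7% held a GC box, 27.7% a SOX core and 12.03% a FOX core. A TCF/LEF core was in 13.8%, the ETS site CCGGAA in 12.03% and a TATA core in 12.4%. The shorter ETS core GGAA, not marked by capitals, was in 93.4%. It was found in the Slco1a4 and Mfsd2a windows but not in that of Cldn5. Of the 9 genes, 7 matched a RefSeq window, and among the first window of each the TCF/LEF core was found in 2, Mfsd2a and Abcb1a. The Abcb1a window belongs to a RefSeq start 92986 bases from the annotated GENCODE start. A match is only a match of letters, and the windows are credited to RefSeq.

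Cldn5 encodes claudin-5, the claudin that dominates the tight junctions of brain endothelium (ENSMUSG00000041378.2, chromosome 16, 18776847 to 18778262, GENCODE M21 on GRCm38). It stood at 11.92, 12.47 and 12.23 in EAE replicates 1 to 3, against 12.18, 12.53 and 13.14 in OVA replicates 1 to 3. The groups overlapped, since EAE replicates 2 and 3 lay above OVA replicate 1, and OVA replicate 3 alone lay above 13. The difference was -0.41 ± 0.24 (SE; limma adjusted p = 0.457), with a 95% confidence interval from -0.98 to 0.16.

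Ocln encodes occludin, a membrane-spanning protein of the tight junction strand (ENSMUSG00000021638.12, chromosome 13, 100496507 to 100552718). Its values were 10.32, 10.82 and 10.45 in EAE, against 10.47, 10.93 and 11.44 in OVA. EAE replicate 2 lay above OVA replicate 1, so the groups overlapped. The difference was -0.41 ± 0.24 (SE; limma adjusted p = 0.445).

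Tjp1 encodes ZO-1, the scaffold that ties claudins and occludin to actin and that is made by many cell types (ENSMUSG00000030516.14, chromosome 7, 65296165 to 65527781). It stood at 13.03, 13.23 and 13.17 in EAE, against 13.36, 13.32 and 13.51 in OVA. Every EAE pool lay below every OVA sample, by a gap of 0.09 between the nearest samples. The difference of -0.26 ± 0.09 (SE) was a ratio of 0.838, with an unadjusted limma p of 0.0259 and an adjusted p of 0.225. Of the astrocyte markers, 8 of 8 lay lower in EAE without overlap, against 10.8% of tested genes. With all samples 6 of them fell past the limma threshold, against 0.666% of tested genes. None was at 0, and their summed level was 15.92 to 16.23 in EAE and 16.83 to 17.18 in OVA. Among those past the threshold, the 4 with the largest differences were the ion and glutamate transporters Slc4a4 (-1.14), Slc1a2 (-0.94) and Slc1a3 (-0.85) and the gap junction gene Gja1 (-0.91). These calls depended on the samples used: leaving out EAE replicate 2 left 0 past the threshold, leaving out OVA replicate 3 gave 7, and leaving out any of the other 4 samples left 1 to 3. Their part in the Tjp1 values was not tested.

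Cdh5 encodes VE-cadherin, the adhesive protein of endothelial adherens junctions (ENSMUSG00000031871.9, chromosome 8, 104101625 to 104144511). Its values were 11.10, 11.61 and 11.30 in EAE, against 11.55, 11.79 and 12.31 in OVA. Only EAE replicate 2 overlapped with OVA, and it did so with OVA replicate 1 alone, by 0.06. The difference was -0.55 ± 0.20 (SE; limma adjusted p = 0.240), a ratio of 0.685.

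Pecam1 encodes the contact protein CD31, which is also carried by platelets and many leukocytes (ENSMUSG00000020717.19, chromosome 11, 106654217 to 106750628). It stood at 11.87, 12.27 and 11.85 in EAE, against 12.05, 12.47 and 12.89 in OVA, again with EAE replicate 2 above OVA replicate 1. The difference was -0.47 ± 0.21 (SE; limma adjusted p = 0.327). The summed level of 8 myeloid markers was 15.54 to 15.68 in EAE and 14.72 to 14.95 in OVA, with none at 0. All 8 differences lay above 0, the smallest at 0.03 for Csf1r. Of the 8, 6 were higher in EAE without overlap, against 12.1% of tested genes. With limma 5 were called higher, against 1.72%, and leaving out 1 sample gave 2 to 7. The summed level of the 5 tested platelet markers was 8.67 to 8.76 in EAE and 8.47 to 8.97 in OVA, with 4 of 5 lower in EAE and a median difference of -0.19. OVA replicate 3 was highest for 5 of 5 platelet markers, as it was for Pecam1. The part of either cell type in the Pecam1 values was not tested.

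**Figure D1:**
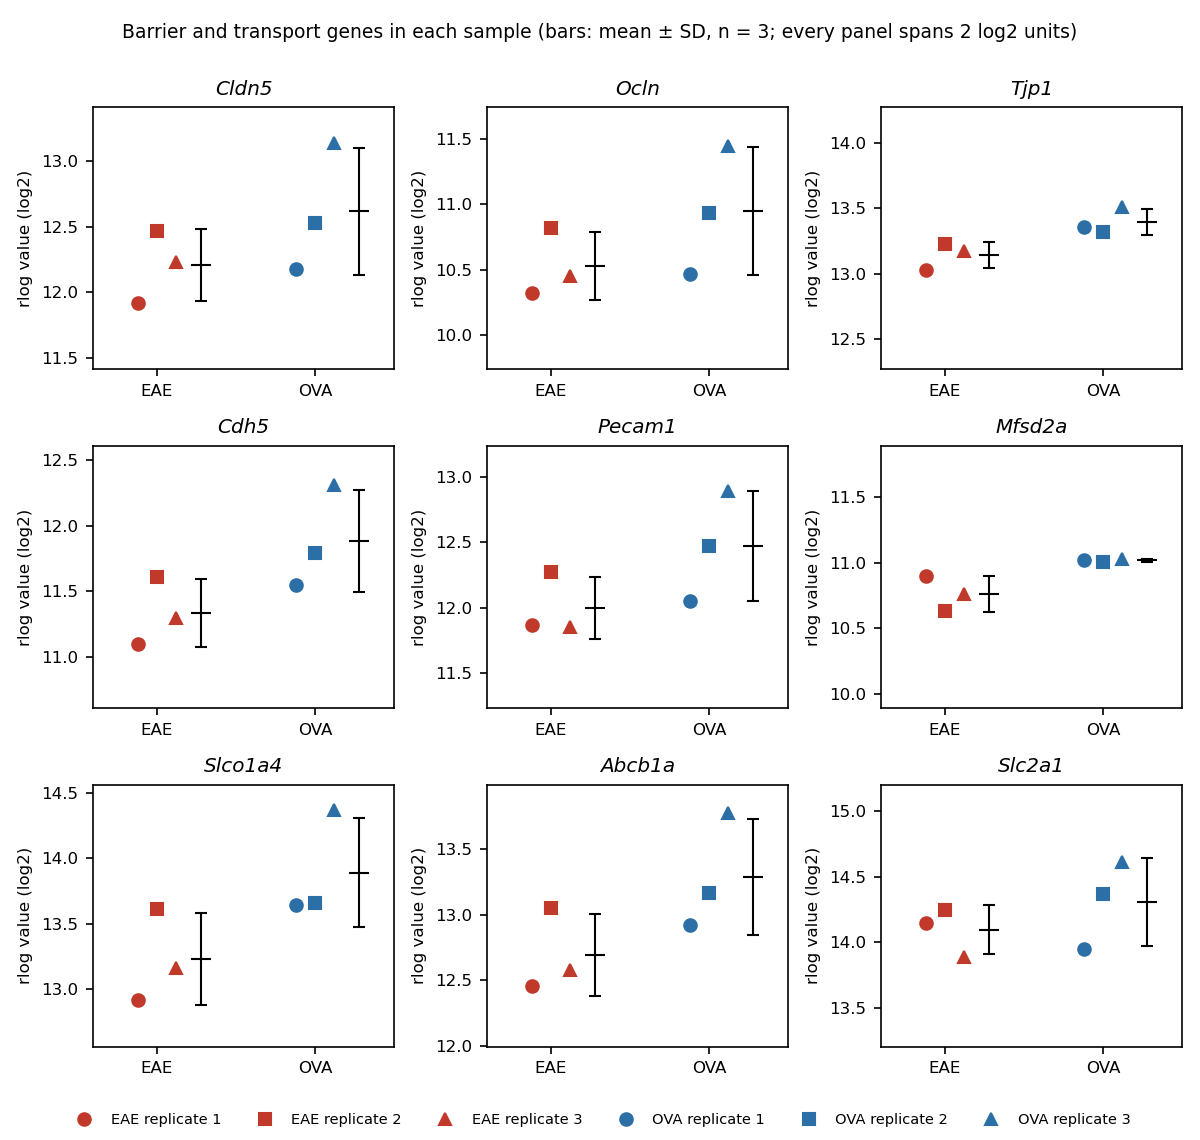
The rlog value (log2 scale, vertical axis) of each of the 9 genes in each sample, with EAE pools in red and OVA samples in blue, the replicate given by the shape of the point, and the mean ± SD (n = 3) beside each group. OVA replicate 3, the blue triangle, is the highest point in every panel, and the groups are separate for Tjp1, Mfsd2a and Slco1a4, where the nearest samples lie 0.09, 0.11 and 0.04 apart.

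Mfsd2a encodes the lysolipid transporter that brings docosahexaenoic acid into the brain and holds down vesicle traffic in endothelium (ENSMUSG00000028655.11, chromosome 4, 122946850 to 122961188). It stood at 10.90, 10.63 and 10.76 in EAE, against 11.02, 11.01 and 11.03 in OVA. The OVA samples were nearly equal (SD 0.01), the EAE pools spread more widely (SD 0.14), and the groups did not overlap. The difference was -0.26 ± 0.08 (SE), with an unadjusted limma p of 0.0162, the smallest of the 9, and an adjusted p of 0.181. The order of the EAE pools departed from that of the other genes: EAE replicate 2 was the lowest pool for Mfsd2a and the highest pool for the other 8. The astrocyte list given beside Tjp1 also separated EAE from OVA, and its part in the Mfsd2a values was not tested.

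Slco1a4 encodes an organic anion transporter that carries steroid conjugates and drugs across brain endothelium in mice (ENSMUSG00000030237.14, chromosome 6, 141805440 to 141856199). Its values were 12.92, 13.61 and 13.16 in EAE, against 13.64, 13.66 and 14.37 in OVA. The groups did not overlap, but EAE replicate 2 and OVA replicate 1 lay only 0.04 apart. The difference was -0.66 ± 0.24 (SE; limma adjusted p = 0.226), a ratio of 0.632 and the largest shift among the 9. Of its 50-base stretches, 1.61% were shared with transcripts of other genes, mostly its neighbour Slco1a5, which was weakly detected at 6.46, 6.72 and 6.53 in EAE and 6.34, 6.38 and 6.93 in OVA.

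Abcb1a encodes the main P-glycoprotein of mouse brain vessels, which pumps drugs back into the blood (ENSMUSG00000040584.8, chromosome 5, 8660077 to 8748575). It stood at 12.46, 13.05 and 12.58 in EAE, against 12.92, 13.17 and 13.78 in OVA, with EAE replicate 2 above OVA replicate 1. The difference was -0.59 ± 0.24 (SE; limma adjusted p = 0.274), a ratio of 0.663. A share of 17.6% of its 50-base stretches also occurs in transcripts of other genes, nearly all in its paralogue Abcb1b, so reads there may have been split or dropped in counting. Abcb1b itself differed by 0.04 ± 0.11 (SE; limma adjusted p = 0.908), at 7.91, 7.79 and 7.67 in EAE and 7.89, 7.72 and 7.64 in OVA.

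Slc2a1 encodes GLUT1, the transporter by which glucose enters the brain, found in endothelium and also in other brain cells (ENSMUSG00000028645.11, chromosome 4, 119108711 to 119137983). Its values were 14.15, 14.25 and 13.89 in EAE, against 13.95, 14.37 and 14.61 in OVA. The groups overlapped, with EAE replicates 1 and 2 above OVA replicate 1. The difference was -0.22 ± 0.18 (SE; limma adjusted p = 0.597), with a 95% confidence interval from -0.64 to 0.20. The choroid plexus, another site of Slc2a1, was present in every sample, with a summed level of 8 markers of 17.45 to 17.88 in EAE and 16.69 to 18.51 in OVA, lowest in OVA replicate 1 and highest in OVA replicate 3. Its part in the Slc2a1 values was not tested.

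With 3 samples a group the smallest p of a two-sided exact permutation test is 0.1. The exact permutation p was 0.1 for Tjp1, Mfsd2a and Slco1a4, 0.2 for Ocln, Cdh5, Pecam1 and Abcb1a, 0.3 for Cldn5 and 0.4 for Slc2a1. Without OVA replicate 3 the differences of Cldn5, Ocln and Slc2a1 were -0.15, -0.16 and -0.07, and those of Cdh5, Pecam1, Slco1a4 and Abcb1a were -0.33, -0.26, -0.42 and -0.35. Tjp1 and Mfsd2a moved little without it, to -0.20 and -0.25. Without OVA replicate 1 the differences were larger for every gene but Mfsd2a, which stayed at -0.25. Cldn5, Ocln and Slc2a1 were then at -0.63, -0.65 and -0.40, and Tjp1 at -0.27. Cdh5, Pecam1, Slco1a4 and Abcb1a were at -0.71, -0.68, -0.79 and -0.78. Cldn5 was at -0.26 without EAE replicate 1, and Slc2a1 at -0.11 without EAE replicate 3. None of these passed the limma threshold.

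**Figure D2:**
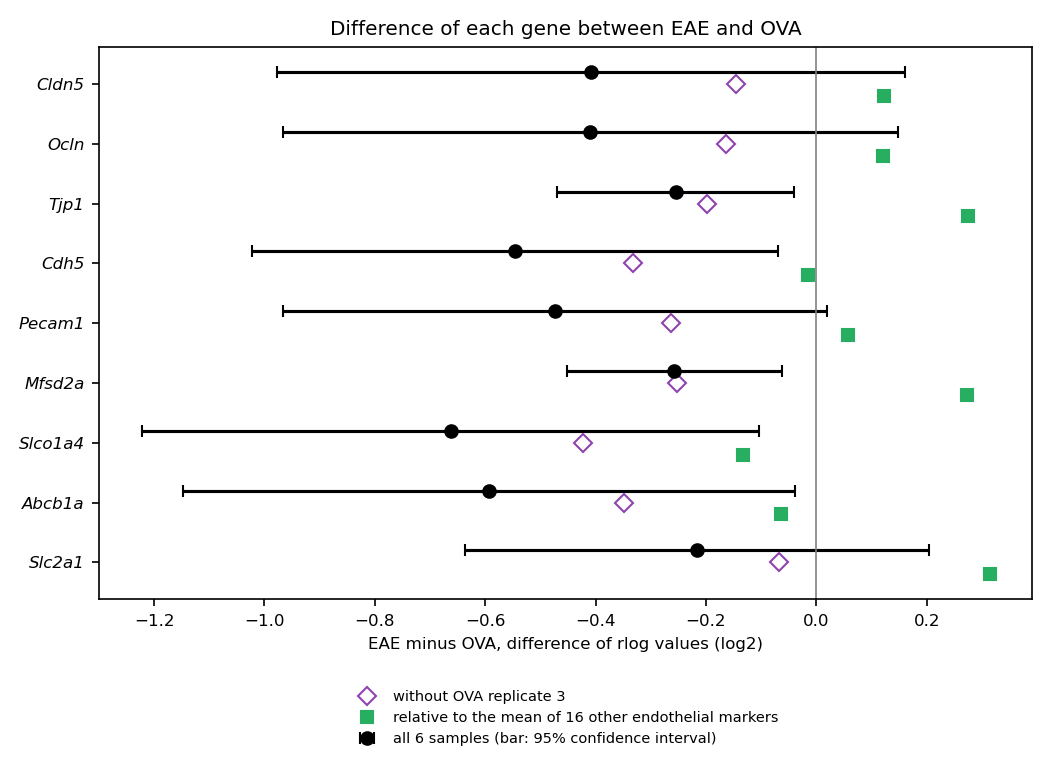
The EAE minus OVA difference of rlog values (log2, horizontal axis) for each of the 9 genes, from all 6 samples with its 95% confidence interval (black), without OVA replicate 3 (open purple diamonds), and relative to the mean of the 16 other endothelial markers of the same sample (green squares). Black points run from -0.66 to -0.22, while green squares run from -0.13 for Slco1a4 to 0.31 for Slc2a1.

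The mean of the 16 other endothelial markers was then subtracted from each gene's value in the same sample. This adds the same 0.53 to the EAE minus OVA difference of every gene, so the signs on this scale are no separate check of the differences, and the scale is used to show how far each gene follows the markers from sample to sample. That marker mean was 11.155, 11.709 and 11.301 in EAE replicates 1 to 3, against 11.521, 11.862 and 12.372 in OVA replicates 1 to 3. On this relative scale Cdh5 was almost constant, at -0.05, -0.10 and -0.00 in EAE and 0.03, -0.07 and -0.06 in OVA. Abcb1a lay at 1.30, 1.34 and 1.28 in EAE and at 1.39, 1.31 and 1.41 in OVA. Over the 6 samples these values spanned 0.13 for each of the pair, close to the narrowest of the 16 markers set against the rest of their list (0.12), whose median span was 0.27.

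Pecam1, Ocln, Cldn5 and Slco1a4 spanned 0.20, 0.22, 0.27 and 0.36 on the relative scale, inside the range of the 16 markers (0.12 to 0.75). Cldn5 stood at 0.76, 0.76 and 0.93 in EAE, against 0.65, 0.67 and 0.76 in OVA. Slco1a4 stood at 1.76, 1.90 and 1.86 in EAE, against 2.12, 1.80 and 2.00 in OVA. The samples of the groups overlapped for Cldn5, Pecam1 and Slco1a4. Ocln was slightly higher in EAE without overlap, at -0.83, -0.89 and -0.85, against -1.05, -0.93 and -0.94 in OVA.

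Tjp1, Slc2a1 and Mfsd2a varied more. Tjp1 spanned 0.74, at 1.88, 1.52 and 1.87 in EAE and 1.84, 1.46 and 1.14 in OVA. Slc2a1 spanned 0.756, just above the widest of the 16 markers (Vwf, 0.749), and was higher in EAE without overlap, at 2.99, 2.54 and 2.59, against 2.43, 2.51 and 2.24 in OVA. Mfsd2a spanned 1.09, also above all 16 markers, at -0.26, -1.08 and -0.54 in EAE and -0.50, -0.86 and -1.34 in OVA. Over all tested genes the median span on this scale was 1.25, wider than for any of the 9. The lack of overlap for 2 of 9 genes, Ocln and Slc2a1, compares with 22.3% of all tested genes that were higher in EAE without overlap on this scale, and 0 of 9 were lower without overlap, against 0.0441%. On the relative scale limma called 0 of 9, with adjusted p from 0.459 to 0.968.

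**Figure D3:**
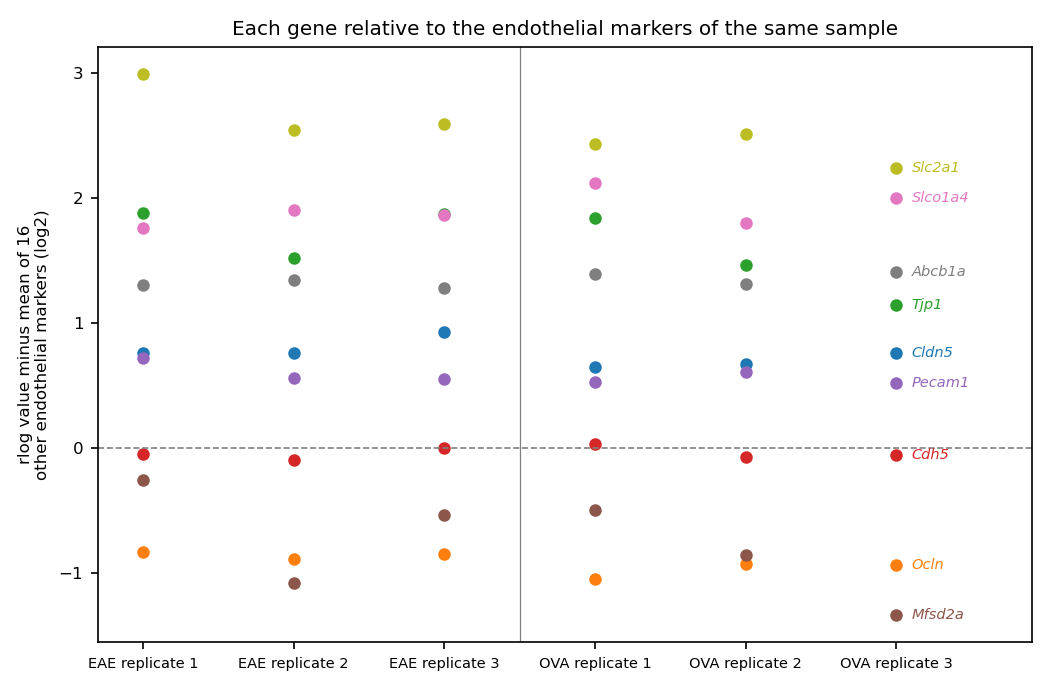
The rlog value of each gene minus the mean of the 16 other endothelial markers of the same sample (log2, vertical axis), with EAE pools left of the grey line and OVA samples right of it. Cdh5 and Abcb1a each span 0.13 over the 6 samples, whereas Mfsd2a spans 1.09.

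Levels of different genes were compared per kilobase of annotated exon, since longer transcripts give more reads. In OVA the rlog level per kilobase was highest for Slc2a1 at 12.50 ± 0.33 and Cldn5 at 12.11 ± 0.49 (SD, n = 3). Slco1a4 followed at 11.21 ± 0.42, Abcb1a at 10.84 ± 0.44 and Tjp1 at 10.43 ± 0.10. Mfsd2a, Pecam1 and Cdh5 were close together at 9.85 ± 0.01, 9.83 ± 0.42 and 9.81 ± 0.39, and Ocln was lowest at 8.87 ± 0.48. Neighbours in this order differed by more than the larger SD for Cldn5 over Slco1a4, Tjp1 over Mfsd2a and Cdh5 over Ocln, and by less for the other 5 pairs. These SDs include shifts shared by both genes of a pair, so the order was also read within each sample. The named pairs kept it in 6 of 6 samples. So did Slc2a1 over Cldn5 (0.49 ± 0.25, SD over 6 samples) and Slco1a4 over Abcb1a (0.34 ± 0.09). Abcb1a over Tjp1, Mfsd2a over Pecam1 and Pecam1 over Cdh5 kept it in 4 of 6. In EAE the same level was 12.29 ± 0.18 for Slc2a1, 11.70 ± 0.28 for Cldn5 and 8.46 ± 0.26 for Ocln, at the ends of the order as in OVA.

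The other paralogues were far below the members they resemble. Per kilobase, Abcb1b stood at 4.79 in EAE and 4.75 in OVA, and Slco1a5 at 4.68 in EAE and 4.65 in OVA. Slco1a1 and Slco1a6 were under the filter and were not tested. The glucose transporters Slc2a3 and Slc2a4 differed by -0.19 and -0.10, the sphingosine 1-phosphate exporter Mfsd2b by -0.13 and the epithelial cadherin Cdh1 by -0.33, with limma adjusted p from 0.466 to 0.815.

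Genes with the pattern most like the mean of the 9, by Pearson r over the 6 samples and among 10527 genes outside all lists used here, were Tns1, Ptprm, Itga1, Utrn, Ushbp1 and Pgm5, with r from 0.997 to 1.000. Tns1 encodes the focal adhesion protein tensin-1, Ptprm a receptor tyrosine phosphatase that mediates cell contact, Itga1 a collagen-binding integrin chain and Utrn the cytoskeletal linker utrophin. These r values describe likeness only, over few samples. Tns1 stood at 12.77, 13.07 and 12.83 in EAE, against 13.00, 13.18 and 13.52 in OVA. None of the 6 passed the limma threshold (adjusted p from 0.245 to 0.305).

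Other genes of the same systems were taken by list. For every list below, the shares over all tested genes are 0.666% called lower and 1.72% called higher. At an unadjusted limma p under 0.05 they are 7.15% lower and 9.17% higher. Of 18 other tight junction genes, 14 lay below 0 with a median of -0.13, and 0 passed the limma threshold in either direction, with 4 lower and 1 higher at an unadjusted p under 0.05. Jam2, a junctional adhesion molecule, had the smallest p, at 11.35, 11.64 and 11.52 in EAE against 12.02, 11.96 and 12.36 in OVA (-0.61 ± 0.13, SE; limma adjusted p = 0.0553). Jam2 was called lower, as the 1 gene of its list, with values centred on the median gene, with samples weighted by their number of mice, and without OVA replicate 3. Afdn, the junction scaffold afadin, differed by -0.25 (0.119), and Tjp3, a relative of Tjp1 known mainly from epithelia, by 0.39 (0.225). Of 12 other adherens junction genes, 10 lay below 0 with a median of -0.14, and 0 passed, with 4 lower and 0 higher at an unadjusted limma p under 0.05. Cdh2, N-cadherin, differed by -0.21 (limma adjusted p = 0.175), Icam2, an adhesion molecule of resting endothelium, by -0.51 (0.201) and Jup, plakoglobin, by 0.13 (0.551).

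All 22 other barrier transport genes lay below 0, with a median of -0.39, and 1 of them fell. It was Slc38a3, a glutamine transporter also found in astrocytes, at 12.67, 12.72 and 12.68 in EAE against 13.32, 13.07 and 13.31 in OVA (-0.54 ± 0.09, SE; limma adjusted p = 0.030). It passed without OVA replicate 3 but missed the threshold without any of the other 5 samples (limma adjusted p of at most 0.143). The astrocyte list given beside Tjp1 lay on the same side of 0 as Slc38a3, and its part was not tested. At an unadjusted limma p under 0.05, 9 of the 22 were lower and 0 higher, against 7.15% and 9.17% of tested genes.

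Genes of vesicle transport and leaky vessels lay below 0 for 9 of 10, with a median of -0.22, and 0 passed the limma threshold. An unadjusted limma p under 0.05 was reached by 1 lower and 0 higher, against 7.15% and 9.17% of tested genes. Cav1, caveolin-1 of endothelial vesicles, whose traffic Mfsd2a limits, stood at 10.45, 11.07 and 10.86 in EAE against 11.05, 11.27 and 12.04 in OVA (-0.66 ± 0.26, SE; limma adjusted p = 0.270). Plvap, which marks fenestrated and leaky vessels, was low at 6.14, 6.07 and 5.86 in EAE against 5.72, 5.52 and 6.06 in OVA (0.26 ± 0.15, SE; limma adjusted p = 0.450). Esm1, a gene of sprouting tip cells, differed by -0.25 (0.338).

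Of 24 genes of Wnt signalling and the barrier programme, 22 lay below 0 with a median of -0.36, and 0 passed the limma threshold. An unadjusted limma p under 0.05 was reached by 5 lower and 0 higher, against 7.15% and 9.17% of tested genes. Without OVA replicate 1, 1 of the 24 was called lower. Fzd4, the Wnt and norrin receptor, stood at 10.67, 10.87 and 10.59 in EAE against 10.96, 11.38 and 11.57 in OVA (-0.59 ± 0.16, SE; limma adjusted p = 0.111). Tnfrsf19 differed by -0.55 (0.138) and the nuclear receptor Ppard by 0.14 (0.349). The 16 other endothelial markers all lay below 0, with a median of -0.55, and 0 passed. At an unadjusted limma p under 0.05, 7 were lower and 0 higher, against the same 7.15% and 9.17%. Vwf, von Willebrand factor, stood at 13.21, 13.65 and 13.00 in EAE against 13.79, 13.80 and 13.94 in OVA (-0.56 ± 0.16, SE; limma adjusted p = 0.139), and Robo4 differed by -0.54 (0.212). Without OVA replicate 3 the medians were -0.18 for the transport list, -0.09 for the vesicle list, -0.11 for the Wnt list and -0.31 for the endothelial markers. The tight junction and adherens junction lists moved little, from -0.13 to -0.11 and from -0.14 to -0.12. The median of the endothelial adhesion molecules below went from -0.15 to -0.08.

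Endothelial adhesion molecules, which capture leukocytes, were split. Of 6, 3 lay below 0 and 0 passed the limma threshold. An unadjusted limma p under 0.05 was reached by 1 lower and 0 higher, against 7.15% and 9.17% of tested genes. Vcam1 differed by -0.52 and the venular chemokine receptor Ackr1 by -0.63 (limma adjusted p = 0.216 and 0.327). Icam1 stood at 11.22, 11.26 and 10.62 in EAE against 10.67, 10.63 and 10.85 in OVA (0.32 ± 0.17, SE; limma adjusted p = 0.404).

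Mural cells, which wrap the vessels, were described by 12 pericyte and smooth muscle markers. Of these 10 lay below 0 with a median of -0.32, and 1 rose, Anpep, an aminopeptidase also made by myeloid cells (1.63 ± 0.29, SE; limma adjusted p = 0.033). Anpep missed the threshold when any 1 of 4 samples was left out, namely replicates 1 and 2 of each group (limma adjusted p of at most 0.136). The summed level of the list was 14.88 to 15.25 in EAE and 14.94 to 15.77 in OVA.

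**Figure D4:**
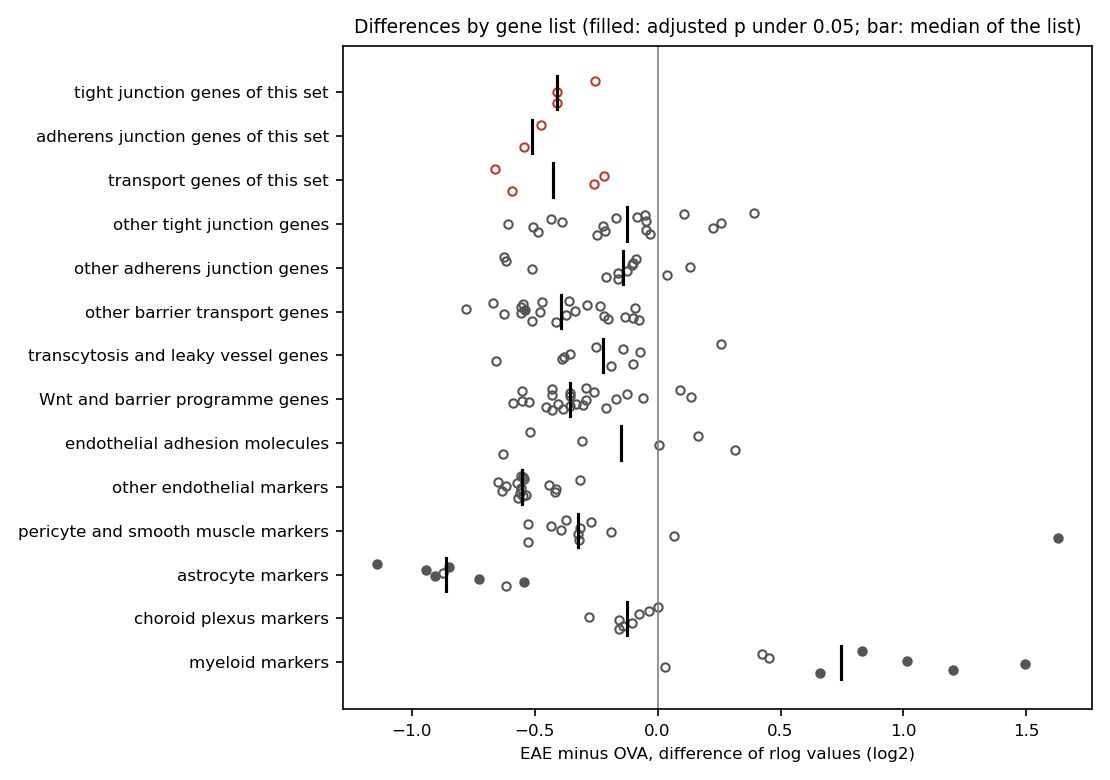
The EAE minus OVA difference of rlog values (log2, horizontal axis) of every tested gene of 14 lists, one list per row, with the 9 genes described here in red, genes past the limma threshold filled, and the list median as a black bar. The 9 red points lie between -0.66 and -0.22 and none is filled, beside a median of -0.55 for the other endothelial markers and -0.86 for the astrocyte markers.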

How the data were processed

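RNA from O4-selected brain cells was made into TruSeq Stranded mRNA libraries, according to the labels. Tools listed by the submitters' processing notes, with no role given, are DESeq2 1.24.0, Subread 1.6.1, STAR 2.6.1c, cutadapt 1.18 and bcl2fastq 2.17, with build GRCm38. The authors deposited 1 table of rlog values on a log2 scale. Without counts, sequencing depth is unknown and no counting intervals are given. Pools average their mice, and the p-values set each difference against the spread between samples, not between mice. The main fit weighted all 6 samples equally, although they held 1 or 2 mice each.

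Of 55298 identifiers, 55117 (99.7%) matched a GENCODE M21 symbol without regard to version, and of identifiers sharing a symbol the one with the highest mean was used. The 18161 genes with a mean of at least 3 were compared with limma 3.58.1 (R 4.3.3; empirical Bayes with an intensity trend, two-sided, Benjamini-Hochberg adjustment over all tested genes, threshold 0.05), which gives every adjusted p here. The fit was tested on simulated data for 18161 genes. Of 50 genes given a log2 difference of 0.5, 22% were recovered, and of 50 given 1, 90%. At 2 and at 3 the share was 100%, and 5 of all 161 calls were false. The simulated noise was independent between genes and equal in all 6 samples. The real samples shift many genes together and hold 1 or 2 mice, so these shares may not hold for them. SE belongs to a difference and SD to a group of 3. The summed level of a list is the log2 of the sum of its unlogged values.

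The 9 genes and all lists were chosen with earlier results of these data known. By rule, the text also names all paralogues; from each other list up to 4 genes past the threshold with the largest difference, or the 2 with the smallest p, plus the 1 furthest to the opposite side of 0; the 6 genes most like the 9 with a mean of at least 8, without predicted genes; and a few context genes. Of the lists of other cell types and the context genes, most names that this rule gives are left out for length. Fibroblast, T cell and neuron markers were also measured, with medians of -0.05, 0.54 and 0.08, and 0, 4 and 0 genes past the threshold. The 4 T cell genes were Cd3d, Cd3e, Cd3g and Lck, of which only Cd3e passed whichever sample was left out.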

Additional observations from a re-analysis of the deposited data

How the results depend on the processing

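No paired analysis was possible because the groups hold different mice and the labels link no EAE pool to an OVA sample. Apart from scaling to the endothelial markers, all 126 values of the 9 genes under 14 alternatives kept a negative sign. Changing the filter, dropping the intensity trend or using robust empirical Bayes leaves each difference unchanged, so those signs were fixed in advance. Centring on the median gene shifts every difference by the same amount. Of the 126 values, 5 passed the limma threshold, all with array quality weights (Tjp1, Cdh5, Pecam1, Mfsd2a and Abcb1a). That weighting stopped before it converged and gave OVA replicate 2 a weight of 8.85, against 0.222 to 1.55 for the other 5 samples, and it called 2858 of all tested genes higher and 2233 lower, against 312 and 121 with equal weights. Under these weights the genes called lower numbered 4 in the vesicle list, 6 in the adherens list and 6 in the Wnt list. They numbered 9 each in the tight junction and transport lists, 12 among the endothelial markers and 2 among the adhesion molecules. Over all tested genes the share called lower was 12.3% under the same weights. In the tight junction (Tjp3), Wnt and adhesion lists 1 gene each was called higher. Scaling to the endothelial marker mean adds 0.53 to every difference, so the signs it turned were fixed by the unscaled values and check nothing further. The 6 values are 0.12 for Cldn5 and Ocln, 0.28 for Tjp1, 0.057 for Pecam1, 0.27 for Mfsd2a and 0.31 for Slc2a1, the median of the 9 became 0.12, and of all tested genes 564 were called higher and 4 lower. Leaving out 1 sample gave 24 (without EAE replicate 2) to 850 (without OVA replicate 3) genes called higher and 1 to 346 called lower in the same 2 settings. The cause was not tested. Precision is limited by 3 samples a group.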
